A study of Rattus norvegicus with 24 samples.

Results

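The 6 genes followed here mark astrocytes, the glial cells that wrap synapses and blood vessels. They were measured in 24 rat hippocampal RNA-seq libraries. The members are Gfap (ENSRNOG00000002919), Aqp4 (ENSRNOG00000016043), S100b (ENSRNOG00000001295), Glul (ENSRNOG00000049560), Slc1a2 (ENSRNOG00000005479) and Slc1a3 (ENSRNOG00000016163). They are 6 of the 32883 genes of the count table, chosen by name as standard astrocyte markers, with earlier results of these data known but with no measured value in the rule. All 6 passed the filter on low counts, which left 14838 genes for testing. Members were found by identifier. The count table gives no gene names, and none of its identifiers could be matched to a name in the reference table used here (0 matches), so the pairing of identifier and symbol is that of the list that chose the genes.

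The rats were male Sprague-Dawley animals, either trained or given no training, and treated with vehicle or corticosterone (the principal glucocorticoid in rodents). The study concerns how glucocorticoids strengthen memory formation. Of the libraries from untrained rats, 7 were vehicle and 6 corticosterone, and of those from trained rats 5 were vehicle and 6 corticosterone. The tissue was whole dissected hippocampus. The count table lists 1 untrained vehicle library (replicate 41) among its trained vehicle columns, an order in which all groups would have equal size. This library was analysed as untrained vehicle, following its label, and no fit took it as trained vehicle. It is the highest untrained vehicle library for Gfap (981 CPM, counts scaled to a common library size) and S100b (1061 CPM), and without it the log2 fold changes were 0.16 for Glul with corticosterone averaged over training (SE 0.04, edgeR adjusted p = 0.0834) and 0.18 for Gfap with training in vehicle rats (SE 0.14, edgeR adjusted p = 0.9999). The labels give no task, dose or sampling time and do not tie each library to its own animal. The p-values therefore cover only the spread between libraries, part of which may be technical.

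Astrocytes clear the transmitter glutamate from the synapse through 2 transporters, GLT-1 (encoded by Slc1a2) and GLAST (Slc1a3). Glutamine synthetase (Glul) then converts it to glutamine, which is passed back to neurons. Gfap encodes the intermediate filament of the astrocyte skeleton, Aqp4 the water channel of the end-feet on blood vessels, and S100b a calcium-binding protein that is also secreted. Glucocorticoids enter the brain and act through receptors that bind DNA, and Glul has long been used as an example of a glucocorticoid-responsive glial gene in culture.

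All 6 markers were detected in every library, with at least 5934 reads per gene (Slc1a2). Libraries held between 13760331 and 16765088 reads in genes (median 15754782). On the first principal component of the libraries, which carried 31.5% of the variance, 8 libraries stood apart from the other 16. Of these 8, 6 came from corticosterone and 2 from vehicle rats. The gene with the largest loading on that component was at 1748 to 4674 CPM in the 8 libraries and at 5.70 to 458 CPM in the 16. More corticosterone than vehicle libraries were thus among the 8, and results on corticosterone are given with all 24 libraries and with the 16 alone. In whole tissue, fewer astrocytes and less RNA per astrocyte cannot be told apart. Markers of other cell types could not be looked up by name, so the part of tissue composition in any result was not tested.

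Promoter sequences from RefSeq (build GRCr8, 250 bases upstream of the annotated start, 5′ to 3′) are shown for 3 members. Glul had the smallest p for corticosterone, S100b varied with Glul between libraries, and Gfap was the most variable member. Capitals mark TTGGC or its reverse complement GCCAA, the core half-site of nuclear factor I, a factor that acts in astrocyte development. So short a stretch does not by itself mark a site of that factor. Every marked copy in the Glul window reads GCCAAT, which also contains CCAAT. The S100b copy nearer the start reads ATTGGC, the reverse complement of GCCAAT, and so contains CCAAT on the other strand. Glul has 2 annotated windows, and the one with matches is printed.
Glul (chr13:68575816-68576065, plus strand): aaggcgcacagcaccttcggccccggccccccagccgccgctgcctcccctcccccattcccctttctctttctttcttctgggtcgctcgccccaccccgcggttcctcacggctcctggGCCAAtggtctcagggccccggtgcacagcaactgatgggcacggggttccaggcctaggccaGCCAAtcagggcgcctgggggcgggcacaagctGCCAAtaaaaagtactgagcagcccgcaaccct
S100b (chr20:12381082-12381331, minus strand): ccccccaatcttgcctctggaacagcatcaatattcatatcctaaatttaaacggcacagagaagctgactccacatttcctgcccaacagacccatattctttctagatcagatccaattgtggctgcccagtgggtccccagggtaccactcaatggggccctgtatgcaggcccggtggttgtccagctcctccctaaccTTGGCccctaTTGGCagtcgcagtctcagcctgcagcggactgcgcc
Gfap (chr10:88361662-88361911, minus strand): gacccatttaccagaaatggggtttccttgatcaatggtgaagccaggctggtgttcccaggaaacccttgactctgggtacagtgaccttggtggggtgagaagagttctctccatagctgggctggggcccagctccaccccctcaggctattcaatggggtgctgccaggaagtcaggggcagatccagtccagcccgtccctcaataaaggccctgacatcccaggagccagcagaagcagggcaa

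The printed Glul window holds 3 copies of the TTGGC core, the S100b window 2 and the Gfap window 0. Over all 6 members RefSeq lists 11 windows, some of which overlap, and 6 of the 11 hold the core, against 40.3% of 33469 rat windows of the same length. The 3 Slc1a3 windows overlap and hold the same single copy, so the 6 include that copy repeatedly. By gene, 4 of the 6 members have a window with the core, and the share of all genes was not counted. The hexamer AGAACA, a half-site of the glucocorticoid receptor element and not the whole element, was searched on both strands too. It was found in 1 of the 11 windows, the second window of Slc1a2, beginning 79 bases before the start, and in 17.5% of all windows. Neither Glul window holds it (0 copies). The STAT motif TTCNNNGAA was found in 0 of the 11 windows and in 7.67% of all windows. Such matches describe letters and not occupied sites, and elements outside these short windows were not searched.

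Glul, the enzyme of glutamine synthesis, was the member that differed most between treatments relative to its error. In untrained rats its level ran from 1175 to 1368 CPM with vehicle (median 1281, n = 7) and from 1274 to 1465 CPM with corticosterone (median 1408, n = 6). Of the untrained corticosterone libraries, 5 of 6 lay above every untrained vehicle library. In trained rats the 5 vehicle libraries were at 1076, 1171, 1228, 1230 and 1284 CPM, and the corticosterone libraries ran from 1170 to 1473 CPM (median 1386, n = 6), with 4 of 6 above every vehicle library. The groups overlapped in both training states.

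In untrained rats Glul averaged 1261 ± 69.8 CPM with vehicle (SD, n = 7) and 1392 ± 64.7 CPM with corticosterone (SD, n = 6). The means for trained rats were 1198 ± 78.7 CPM (SD, n = 5) and 1349 ± 121 CPM (SD, n = 6). Raw counts behind them ranged from 16983 to 24151 reads, so counting error is small beside the spread between libraries. Averaged over training, the log2 fold change for corticosterone was 0.16 (SE 0.04, 95% interval 0.08 to 0.24), or 1.12-fold, with an edgeR adjusted p of 0.06, which did not pass the threshold of 0.05. Its p ranked 144 of 14838 genes in that comparison, in which 138 genes passed. In untrained rats alone the log2 fold change was 0.14 (SE 0.05, edgeR adjusted p = 0.545), and in trained rats it was 0.17 (SE 0.06, edgeR adjusted p = 0.458).

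Whether Glul passed depended on the fit and on the libraries used. In the 16 libraries low on that component, all 6 corticosterone libraries, at 1411 to 1473 CPM, lay above all 10 vehicle libraries, at 1076 to 1368 CPM. Of all genes tested, 0.243% were separated in this direction in the same 16 libraries. In the 8 libraries high on the component, 6 corticosterone libraries were at 1170 to 1405 CPM and the 2 vehicle libraries at 1190 and 1228 CPM, so these overlapped. Fitted to the 16 libraries alone, the log2 fold change was 0.23 (SE 0.04, edgeR adjusted p = 0.0106), with 0.316% of genes called.

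With 1 surrogate variable in the model, which followed the first component, the log2 fold change of Glul was 0.20 (SE 0.03, edgeR adjusted p = 0.00179), and 0.775% of genes were called. With the level of the gene with the largest loading as a covariate it was 0.19 (SE 0.03, edgeR adjusted p = 0.00234), and 0.701% were called. Both alternatives that use that gene or the 16 libraries were added after the data were seen. DESeq2 on all 24 libraries gave 0.16 (SE 0.04, adjusted p = 0.0112) and called 1.16% of its genes, and limma-voom gave 0.16 (SE 0.04, adjusted p = 0.0528) and called 0.876%. Leaving out 1 library at a time moved the edgeR adjusted p between 0.015 (without trained corticosterone replicate 40) and 0.165, and 4 of the 24 such fits passed. In those 4 fits the share of all genes called was 0.863% (without untrained vehicle replicate 27), 0.776% (untrained corticosterone 19), 0.77% (trained corticosterone 33) and 0.796% (trained corticosterone 40). The log2 fold change stayed between 0.14 and 0.18 in the 24 fits. With libraries blocked by runs of 5 sample numbers, also added after the data were seen, it was 0.12 (SE 0.04, edgeR adjusted p = 0.382). Each such run holds no more than 1 library of any group, so this fit compares groups within runs.

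**Figure D1:**
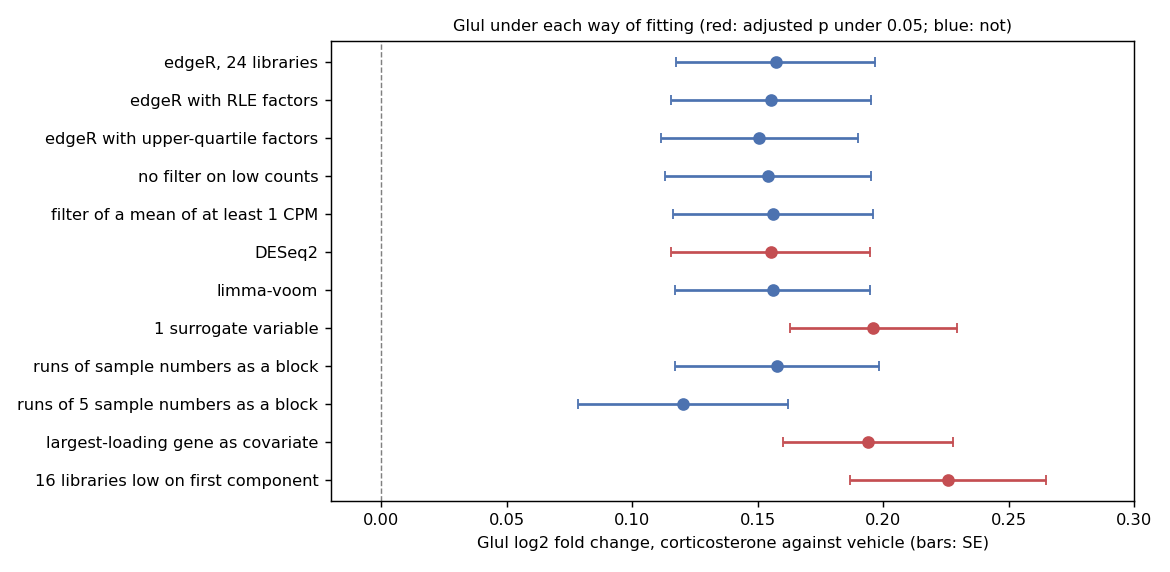
Log2 fold change of Glul for corticosterone against vehicle, averaged over training (x axis), under each way of fitting (y axis), with bars of 1 SE. Values lie between 0.12 and 0.23 in all 12 fits, and 4 of the 12 have an adjusted p under 0.05 (red).

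Because Glul is read within the same libraries as the other astrocyte genes, its level was also set against theirs, a comparison chosen after the values were seen and given without a test. Log2 CPM of Glul minus the mean log2 CPM of the other 5 members was 0.78 ± 0.06 with vehicle (SD, n = 7) and 0.93 ± 0.14 with corticosterone (SD, n = 6) in untrained rats. In trained rats it was 0.66 ± 0.08 (SD, n = 5) and 0.91 ± 0.13 (SD, n = 6). Of the 12 corticosterone libraries, 8 lay above all 12 vehicle libraries on this measure. Its mean was 0.19 higher on the log2 scale in the 12 corticosterone than in the 12 vehicle libraries. The measure also rises where the other 5 genes are low. For corticosterone averaged over training, the log2 fold change was -0.13 for Gfap and -0.08 for Aqp4. It was -0.004 for Slc1a2, -0.005 for Slc1a3 and 0.04 for S100b. The libraries highest on the measure were untrained corticosterone replicates 29 and 4 and trained corticosterone replicate 3. Of all 24 libraries, replicate 29 had the lowest Slc1a2 and Slc1a3, replicate 4 the lowest Aqp4 and replicate 3 the lowest Gfap. The difference is therefore not that of Glul alone.

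Neither glutamate transporter passed the test for corticosterone. Slc1a2 (GLT-1) ran from 464 to 551 CPM in untrained vehicle libraries (median 533) and from 368 to 579 CPM in untrained corticosterone libraries (median 513). The trained vehicle libraries were at 486, 500.3, 508, 513 and 535 CPM, and trained corticosterone libraries ran from 448 to 577 CPM (median 526.4). The 4 groups overlapped throughout, and untrained corticosterone held both the lowest library (replicate 29) and the highest (replicate 39) of all 24. For corticosterone averaged over training, the log2 fold change was 0.00 (SE 0.05, 95% interval -0.12 to 0.11, edgeR adjusted p = 0.992).

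Slc1a3 (GLAST) ran from 655 to 841 CPM in untrained vehicle (median 736) and from 628 to 830 CPM in untrained corticosterone libraries (median 757). The trained vehicle libraries were at 743, 748, 756, 797 and 861 CPM, and trained corticosterone ones ran from 703 to 860 CPM (median 787). These ranges overlapped as well. The log2 fold change for corticosterone averaged over training was -0.01 (SE 0.05, 95% interval -0.10 to 0.09, edgeR adjusted p = 0.992). The 95% intervals reach a change of 1.08-fold for Slc1a2 and of 1.07-fold for Slc1a3 in the direction where they extend farther.

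In the 16 libraries low on the first component, Slc1a3 was at 772 to 860 CPM with corticosterone (n = 6) and at 655 to 841 CPM with vehicle (n = 10). The log2 fold change there was 0.10 (SE 0.05, edgeR adjusted p = 0.669), and for Slc1a2 it was 0.04 (SE 0.04, edgeR adjusted p = 0.906). Neither transporter passed with all libraries or with the 16.

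**Figure D2:**
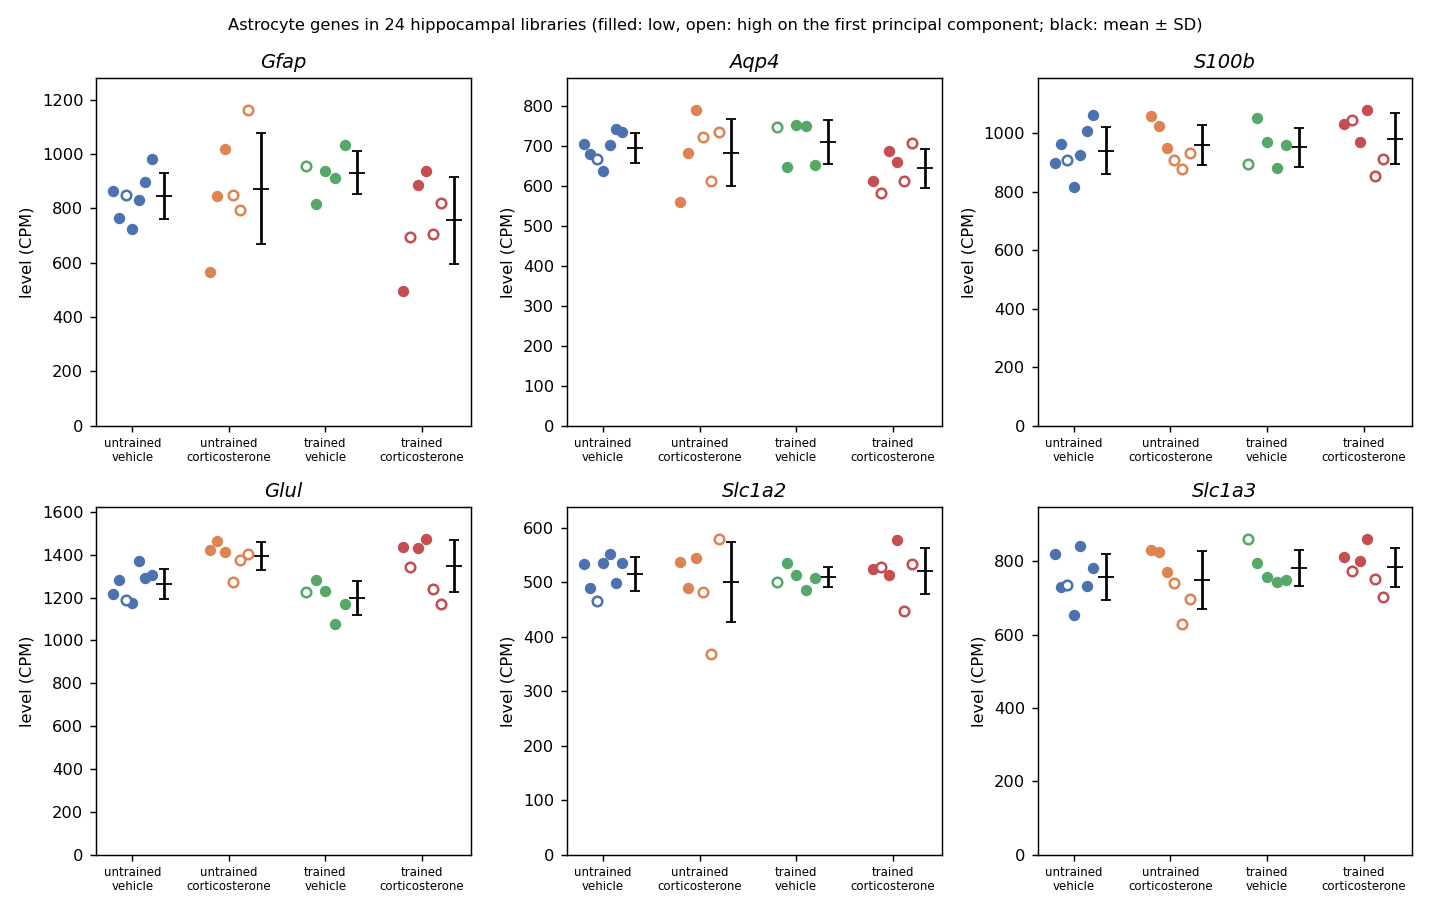
Level in CPM (y axis, from 0) of each member in each library, by group (x axis). Filled points are the 16 libraries low and open points the 8 libraries high on the first principal component, and black marks are the mean and SD. The Glul points of the corticosterone groups sit mostly above those of vehicle, while Gfap spreads most widely within corticosterone groups.

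Gfap, the filament gene that rises when astrocytes become reactive, varied most. It ran from 723 to 981 CPM in untrained vehicle (median 850, n = 7), and from 564 to 1162 CPM in untrained corticosterone libraries (median 848, n = 6). The trained vehicle libraries were at 818, 911, 936, 957 and 1034 CPM, and trained corticosterone libraries ran from 496 to 936 CPM (median 761, n = 6). The lowest and the highest of all 24 libraries, 2.34-fold apart, were both from corticosterone rats.

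Gfap averaged 844 ± 84.7 CPM with vehicle (SD, n = 7) and 872 ± 204 CPM with corticosterone (SD, n = 6) in untrained rats. In trained rats these means were 931 ± 78.5 CPM (SD, n = 5) and 756 ± 160 CPM (SD, n = 6). The coefficient of variation was 10.03% and 8.43% in the vehicle groups and 23.4% and 21.1% in the corticosterone groups, in the order untrained and trained. For Slc1a2 it was 6.08% with vehicle and 14.8% with corticosterone in untrained rats, and 3.59% and 8.07% in trained rats. For Aqp4 it was 5.40% and 12.4% in untrained and 7.71% and 7.63% in trained rats. Slc1a3 had the larger value with corticosterone in both states, and S100b and Glul in trained rats only. No difference in spread was tested. Within groups the SD of log2 CPM was 0.26 for Gfap, larger than for all but 33 of the 2177 genes averaging 100 CPM or more, whose median was 0.08.

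In trained rats, Gfap was lower in 3 of the 6 corticosterone libraries than in any vehicle library, and the log2 fold change was -0.30 (SE 0.14, 95% interval -0.60 to -0.0048). Its unadjusted p of 0.0467 became an edgeR adjusted p of 0.692, and 7.1% of all genes reached an unadjusted p under 0.05 in this comparison. Without trained corticosterone replicate 3, the lowest library at 496 CPM, the log2 fold change was -0.20. In untrained rats the log2 fold change was 0.05 (SE 0.13, edgeR adjusted p = 0.972), and it ran from -0.05 without untrained corticosterone replicate 39 to 0.14 without untrained corticosterone replicate 4. In the 16 libraries low on the first component, the log2 fold change of Gfap was -0.06 in untrained (SE 0.18, edgeR adjusted p = 0.975) and -0.26 in trained rats (SE 0.19, edgeR adjusted p = 0.759), so its sign in untrained rats turned. With all libraries the difference between training states had a log2 value of -0.35 (SE 0.19, 95% interval -0.75 to 0.05) and did not pass (edgeR adjusted p = 0.962).

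Aqp4, the end-foot water channel, had its highest mean in trained vehicle and its lowest in trained corticosterone libraries, as Gfap did. Its libraries ran from 638 to 744 CPM in untrained vehicle (median 704) and from 560 to 791 CPM in untrained corticosterone (median 704). The trained vehicle libraries were at 648, 653, 748, 749 and 754 CPM, and trained corticosterone libraries ran from 583 to 709 CPM (median 637), of which 3 were below the lowest vehicle library. The log2 fold change for corticosterone was -0.14 in trained rats (SE 0.07, edgeR adjusted p = 0.729) and -0.03 in untrained rats (SE 0.07, edgeR adjusted p = 0.97). Averaged over training it was -0.08 (SE 0.05, 95% interval -0.19 to 0.02, edgeR adjusted p = 0.659), and in the 16 libraries low on the first component -0.08 (SE 0.06, edgeR adjusted p = 0.88). None of these differences passed.

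S100b, the calcium-binding protein gene, had close levels in all groups. It ran from 815 to 1061 CPM in untrained vehicle (median 926) and from 878 to 1059 CPM in untrained corticosterone libraries (median 941). The trained vehicle libraries were at 883, 895, 959, 970 and 1052 CPM, and trained corticosterone ones ran from 853 to 1080 CPM (median 1001). Averaged over training, the log2 fold change for corticosterone was 0.04 (SE 0.05, 95% interval -0.06 to 0.13, edgeR adjusted p = 0.91). In the 16 libraries low on the first component it was 0.09 (SE 0.05, edgeR adjusted p = 0.782), and again the treatments overlapped.

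Counted together, 0 of the 6 members passed for corticosterone averaged over training (edgeR), against 0.93% of all genes, and 1 of 6, Glul, had an unadjusted p under 0.05, against 9.25% of all genes. DESeq2 called 1 of the 6 (Glul) and limma-voom 0. The median log2 fold change of the members was 0.00, as was that of all genes tested, with member values from -0.13 (Gfap) to 0.16 (Glul). Within untrained rats 0 of 6 passed, against 0.357% of genes, and within trained rats 0 of 6, against 0.162%. At an unadjusted p under 0.05 there were 1 member in untrained rats (Glul, against 6.39% of genes) and 2 in trained rats (Glul and Gfap, against 7.1%), and DESeq2 and limma-voom also called 0 in either state. DESeq2 called 0.529% of its genes in untrained and 0.41% in trained rats, and limma-voom 0.323% and 0.148%. With the 16 libraries alone, 0 members passed by edgeR in either state, against 0.0673% of genes in untrained and 0.101% in trained rats.

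Training was compared next. No member passed for trained against untrained rats, averaged over treatment (edgeR, 0 of 6, with 0% of all genes called), and 0 of 6 had an unadjusted p under 0.05 (3.27% of all genes). DESeq2, limma-voom and edgeR on the 16 libraries low on the first component called 0 members too, and 0% of all genes. The member with the smallest p was Glul, with a log2 fold change of -0.06 (SE 0.04, 95% interval -0.14 to 0.02, edgeR adjusted p = 0.999). Slc1a3 followed with 0.06 (SE 0.05, 95% interval -0.04 to 0.15, edgeR adjusted p = 0.999).

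Within vehicle rats, the training difference was widest for Gfap, at 0.14 (SE 0.14, 95% interval -0.14 to 0.43, edgeR adjusted p = 0.9999). Within corticosterone rats Gfap was at -0.21 (SE 0.14, 95% interval -0.49 to 0.08, edgeR adjusted p = 0.846). In both comparisons 0 of the 6 members passed by edgeR, DESeq2, limma-voom or edgeR on the 16 libraries, with 0% of all genes called by any of them. In both, 0 members had an unadjusted p under 0.05, against 2.28% of genes in vehicle and 6.09% in corticosterone rats.

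Whether the corticosterone difference depended on training was tested by the interaction, and 0 of the 6 members passed (edgeR, with 0% of all genes called). There were 0 members at an unadjusted p under 0.05, against 4.27% of genes, and DESeq2, limma-voom and edgeR on the 16 libraries called 0 members and 0% of genes as well. For Glul the difference between states was 0.03 on the log2 scale (SE 0.08, 95% interval -0.13 to 0.19, edgeR adjusted p = 0.98). For Slc1a2 it was 0.08 (SE 0.11, 95% interval -0.15 to 0.30, edgeR adjusted p = 0.975). The Glul interval reaches a difference between states as large as the average Glul difference itself.

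**Figure D3:**
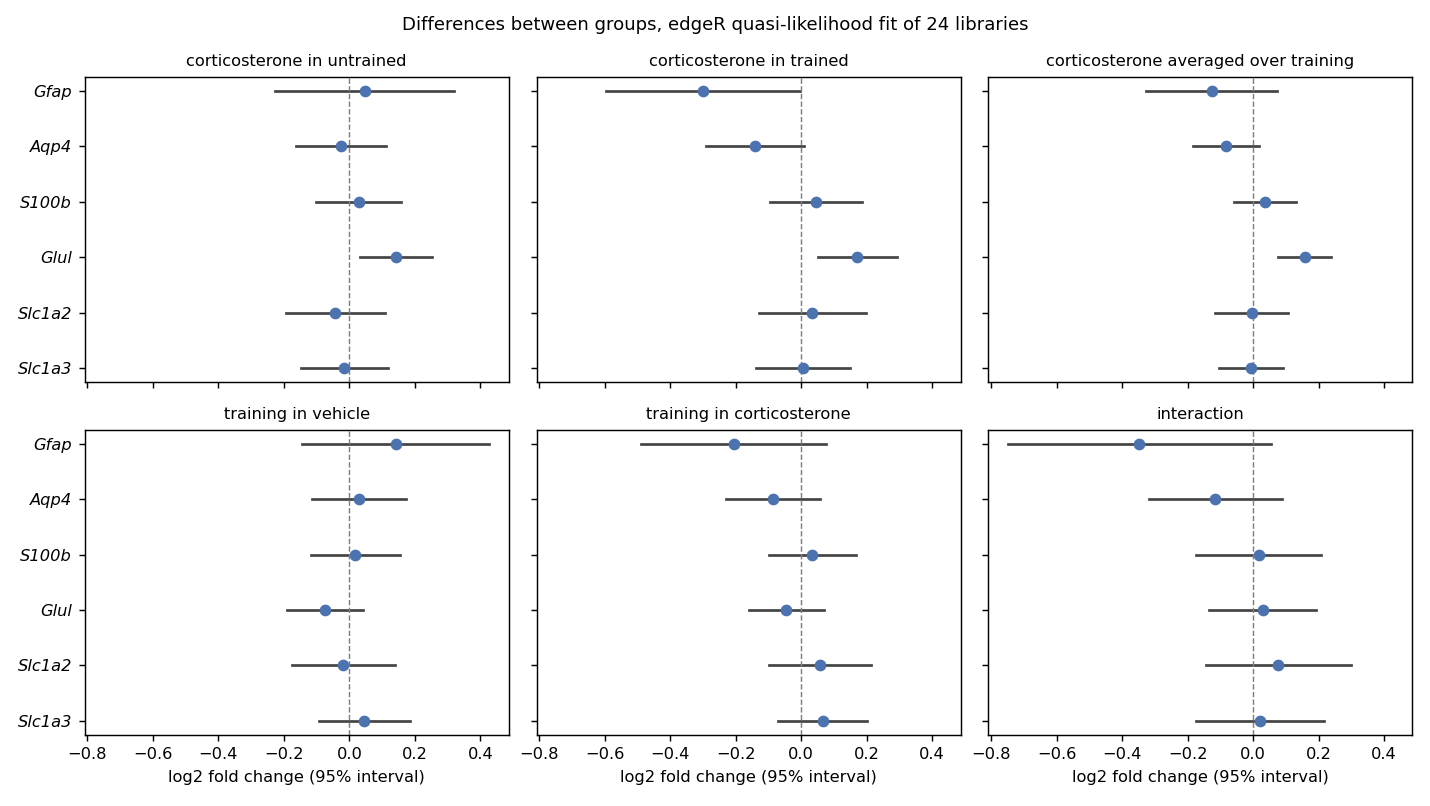
Log2 fold change (x axis) with its 95% interval for each member (y axis) in 6 comparisons. The Glul interval for corticosterone lies above 0 in both training states and on average, and the Gfap interval in trained rats lies below 0. The intervals are not adjusted for the number of genes tested, and no member passed after adjustment in these comparisons. Gfap intervals are the widest.

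The members were not shown to vary as 1 block between libraries, though 10 of the 15 pairs correlated positively. The share of correlated pairs among all genes was not computed. With group means removed, 3 of the 15 pairs had correlations of log2 CPM over the 24 libraries that passed by both Pearson and Spearman tests (two-sided permutation within groups, 1e+05 resamples, adjusted over the 15 pairs). Gfap and Aqp4 had r = 0.71 and rho = 0.76 (permutation p = 0.00069 and 0.00024, adjusted p = 0.00517 and 0.0028). Without the 2 libraries farthest from the Gfap median (untrained corticosterone replicate 4 and trained corticosterone replicate 3), r was 0.65. Those 2 libraries were at 564 and 496 CPM for Gfap and at 560 and 612 CPM for Aqp4, of which 560 CPM was the lowest Aqp4 level of all 24.

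The second set joined Glul to S100b and Slc1a3. S100b and Glul had r = 0.70 and rho = 0.71 (permutation p = 0.00059 and 0.00056, adjusted p = 0.00517 and 0.0028), and r was 0.69 without the 2 libraries farthest from the S100b median. Glul and Slc1a3 had r = 0.60 and rho = 0.65 (permutation p = 0.0015 and 0.00045, adjusted p = 0.0075 and 0.0028), and r was 0.54 without the 2 farthest libraries. S100b and Slc1a3, with r = 0.55, passed by Pearson (permutation test, adjusted p = 0.0345) but not by Spearman (adjusted p = 0.0574).

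The sets were drawn from the pairs that passed, so it was fixed in advance that 0 of the 6 pairs between them passed. Gfap had r = -0.07 with S100b, -0.01 with Glul and -0.06 with Slc1a3, and Aqp4 had -0.12, -0.06 and 0.07 with the same 3 genes (permutation tests, smallest adjusted p = 0.866 by Pearson). Without untrained corticosterone replicate 4 and trained corticosterone replicate 3, the r of Gfap with these genes turned positive, at 0.26, 0.24 and 0.24. Slc1a2 had r from 0.21 to 0.47 with the other 5 members, and none of these pairs passed. Without the 2 libraries farthest from the median of 1 gene of each pair, these r ran from 0.18 (Slc1a3) to 0.50 (Gfap).

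Of the 6 members, S100b, Glul, Slc1a3 and Slc1a2 followed the first principal component, and Gfap and Aqp4 were not shown to. Slc1a2 belongs to neither set, and the share of all genes that follow the component was not counted. With group means removed, the correlation of log2 CPM with the component over the 24 libraries was r = -0.64 and rho = -0.69 for S100b, -0.63 and -0.66 for Glul, -0.51 and -0.55 for Slc1a3 and -0.49 and -0.52 for Slc1a2. These passed (permutation within groups, adjusted over the 6 members, p = 0.0093, 0.0093, 0.0427 and 0.0448 by Pearson and 0.00384, 0.0051, 0.0217 and 0.0279 by Spearman). For Gfap r was 0.23 and rho 0.11, and for Aqp4 0.10 and 0.14, and neither passed (permutation, adjusted p = 0.46 and 0.683 by Pearson). Without the 2 libraries farthest from the median of the component, r was -0.61 for S100b, -0.57 for Glul, -0.52 for Slc1a3 and -0.37 for Slc1a2. Since the 8 libraries stand apart, r was also taken within the 16 low ones, where it was -0.49, -0.33, -0.34 and -0.34 for the same 4 genes and was not tested.

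Within the 16 low libraries, r was 0.74 for Gfap and Aqp4, 0.72 for S100b and Glul and 0.58 for Glul and Slc1a3, and after adjustment over the 15 pairs 0 passed (permutation tests, adjusted p = 0.0592, 0.0592 and 0.146 by Pearson). Within the 8 high libraries, r was 0.73, 0.57 and 0.05 for these 3 pairs, and 0 pairs passed. Only the 6 of them from corticosterone rats deviate from a group mean of their own. Permutation within groups can rearrange only those 6, which is too few for a pair to pass alone after adjustment. The test there could therefore hardly pass and decides nothing about these correlations.

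**Figure D4:**
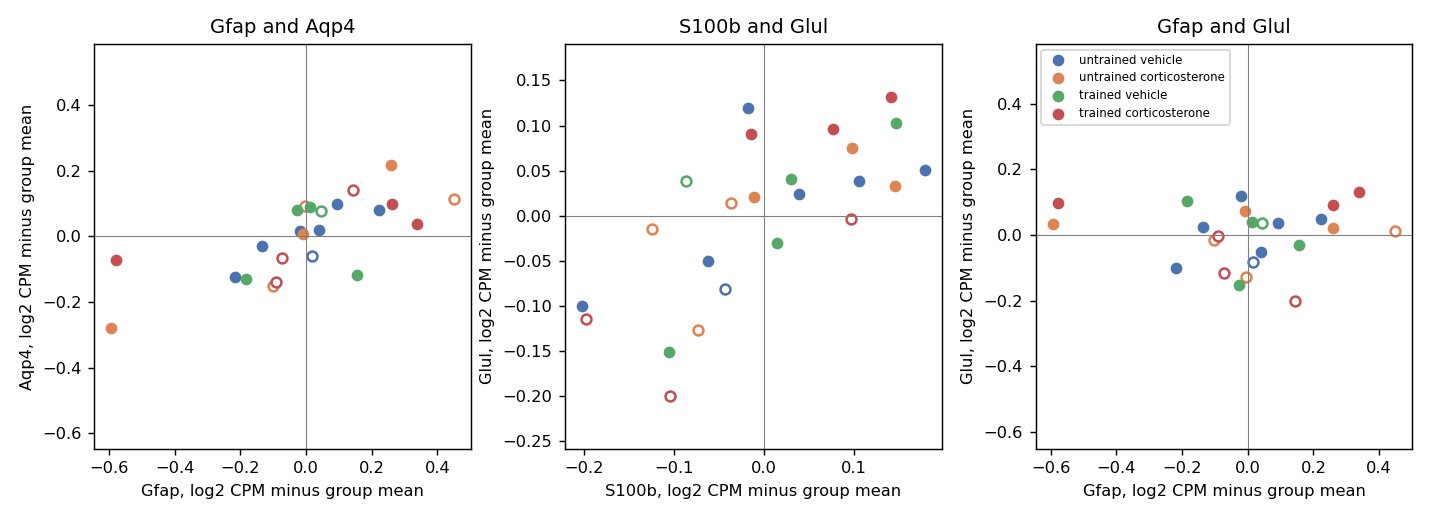
Log2 CPM minus the group mean in 24 libraries for 3 pairs of members, on the x and y axes, with open points for the 8 libraries high on the first principal component. Gfap and Aqp4 (r = 0.71) and S100b and Glul (r = 0.70) rise along a line, while Gfap and Glul (r = -0.01) do not.

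Among 13789 other genes averaging 1 CPM or more, those whose log2 CPM followed the mean of the 6 members most closely over the 24 libraries were ENSRNOG00000002657 (r = 0.78, mean 3.85 CPM) and ENSRNOG00000004613 (r = 0.77, mean 647 CPM). These are the top of a ranking and are given without a test. ENSRNOG00000004613 ranged only from 589 to 710 CPM and had a log2 fold change for corticosterone of -0.03 (SE 0.03, edgeR adjusted p = 0.897).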

How the data were processed

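The authors deposited 1 table of raw read counts per Ensembl rat gene, with a column per library. Per the submitters' processing notes, STAR 2.7.0b, HTSeq 0.6.1, FastQC and MultiQC were used with build rn6. No source used here gives the annotation release or strand setting, which leaves overlapping genes uncertain. The 5 summary rows of the counter were left out (22.0% of reads in no gene, 12.8% aligned to several places), and 59.8% to 62.6% of reads were in genes. Library groups were taken from titles.

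After filterByExpr and TMM scaling, the quasi-likelihood F-test of edgeR 4.0.16 was run in R 4.3.3, with 1 mean per group over all 24 libraries and 7 contrasts. P-values were adjusted by Benjamini-Hochberg over 14838 genes. SE is the log2 fold change divided by the square root of F. Principal components and correlations used log2 CPM with a prior count of 2. Alternatives used DESeq2 1.42.0, limma 3.58.1 and sva 3.50.0. Scripts were tested on simulated data.

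The members and lists were chosen with earlier results of these data known. Named genes are the 6 members and the genes most like their mean. The fixed pathway and cell type lists could not be looked up, since 0 identifiers matched a symbol.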

Additional observations from a re-analysis of the deposited data

How the results depend on the processing

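Of 1494 values of a member in a contrast under an alternative, 8 passed the threshold, all of them Glul for corticosterone averaged over training, and 70 had the opposite sign to the edgeR value with neither past the threshold. The number of members called for that contrast was 1 in place of 0 with DESeq2, with 1 surrogate variable, with the level of the gene with the largest loading as a covariate and with only the 16 libraries low on the first principal component. It ranged from 0 to 1 over the fits that left out 1 library, being 1 without untrained vehicle replicate 27, untrained corticosterone replicate 19, or trained corticosterone replicate 33 or 40. The 3 fits that model the first component or leave out the 8 libraries high on it moved the Glul value from 0.16 to between 0.19 and 0.23. Runs of 10 sample numbers as a block gave 0.16 (edgeR adjusted p = 0.0802) and runs of 5 gave 0.12 (adjusted p = 0.382). With runs of 5, the Gfap value moved from -0.13 to -0.24 (edgeR adjusted p = 0.439). In the other 6 contrasts 0 members were called under every alternative run. The number of correlated pairs, 3 in all libraries, was 4 with RLE factors, 3 with a prior count of 0.5 and 2 without removing group means. It was 0 in the 16 libraries low and 0 in the 8 libraries high on the first component, both smaller sets. The 8 hold too few libraries per group for a pair to pass alone by permutation within groups, so their 0 decides nothing. In the 8 libraries, Glul and Slc1a3 had r = 0.05 with group means removed, and -0.41 (again 0 pairs passed) with the means of the 4 groups left in, a value that mixes differences between groups with those within them. The covariate of a named choroid plexus gene was not run, because no identifier could be paired with a symbol. No label pairs libraries of different groups, and the blocks are runs of sample numbers only. A run of 5 holds no more than 1 library of any group, so that block came closest to a matched comparison. Whether rats were matched in such runs is not given. With the spread between these libraries, the 95% interval of the averaged corticosterone effect had a reach on either side on the log2 scale from 0.08 (Glul) to 0.11 (Slc1a2), and 0.20 for Gfap.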
